A study of Mus musculus with 30 samples.

Results

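What 18 °C added to a 72 h fast was described in the hypothalamus of wild-type C57BL/6 (B6) mice, by setting 3 RNA-seq libraries of mice fasted for 72 h in the cold against 3 libraries of mice fasted for 72 h without it. These are 6 of the 30 libraries of the study, whose 9 groups also hold fed, 24 h fasted and refed mice, and they were taken by their treatment labels and the columns of 1 count table, not by any measured value. Every gene of that table entered, and 20408 of 52286 listed genes had enough counts to be tested. Both groups share genotype, strain and fast. Age, sex, the length of the cold and the temperature of the other group are not given in the sources used here, nor is it said that each library is 1 mouse, so p-values measure the spread between these libraries, which may be technical.

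The hypothalamus defends body temperature by driving heat production and vessel tone, while a long fast pushes mice toward saving energy and lower body temperature. Cold and hunger both engage the stress axis, in which neurons of the paraventricular nucleus release corticotropin-releasing hormone and the adrenal cortex answers with corticosterone. Corticosterone crosses into brain cells and binds the glucocorticoid receptor, a transcription factor that recognises a palindromic DNA element and induces a set of target genes. In the arcuate nucleus, AgRP and NPY neurons promote feeding and POMC neurons restrain it, and other hypothalamic cells sense or set local thyroid hormone action.

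Library depth was between 32482699 and 34757456 counts in the cold libraries and between 31512969 and 43397395 counts in the 72 h fast libraries. All 6 pairs of replicates differed by more than counting noise (chi-square over its degrees of freedom 15.8 to 42.3, from genes averaging 20 or more counts), so the spread between libraries and not depth set the precision of most values. The edgeR quasi-likelihood test called 0 of 20408 genes (0%) at a Benjamini-Hochberg adjusted p below 0.05, and the smallest adjusted p was 0.203. At an unadjusted p below 0.05 there were 1296 genes (6.35%), of which 387 (1.9%) were higher in the cold and 909 (4.45%) lower. With another scaling of the libraries, the size factors of DESeq2 used within edgeR, the split was 542 higher and 752 lower. Without 72 h library 1 it was 529 higher and 572 lower, close to even. Without cold library 1 the edgeR count was 783, and without 72 h library 2 it was 719.

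Other tests on the same counts made calls. DESeq2 called 57 genes (0.279%), 29 higher (0.142%) and 28 lower (0.137%). Voom with quality weights called 28 genes (0.137%), 16 higher (0.0784%) and 12 lower (0.0588%); 25 of them were also DESeq2 calls, which is 89.3% of the voom list and 43.9% of the DESeq2 list. The edgeR likelihood ratio test called 32 (0.157%), 16 higher and 16 lower (0.0784% each). All 3 tests shared 20 genes. In counts simulated on these libraries the quasi-likelihood test recovered 88% of 100 genes altered 3-fold and 21% of 100 genes altered 1.5-fold. It made 5 false calls among 20408 genes. The altered genes averaged at least 1 CPM, and shifts shared by many genes of a library were not simulated, so real recovery may be lower. Most differences given here are smaller than 3-fold. "Higher" and "lower" are used of measured levels, given as CPM (counts scaled to library size, here by TMM), and of edgeR log2 fold changes, cold over 72 h fast; none of them is a call of the quasi-likelihood test.

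**Figure D1:**
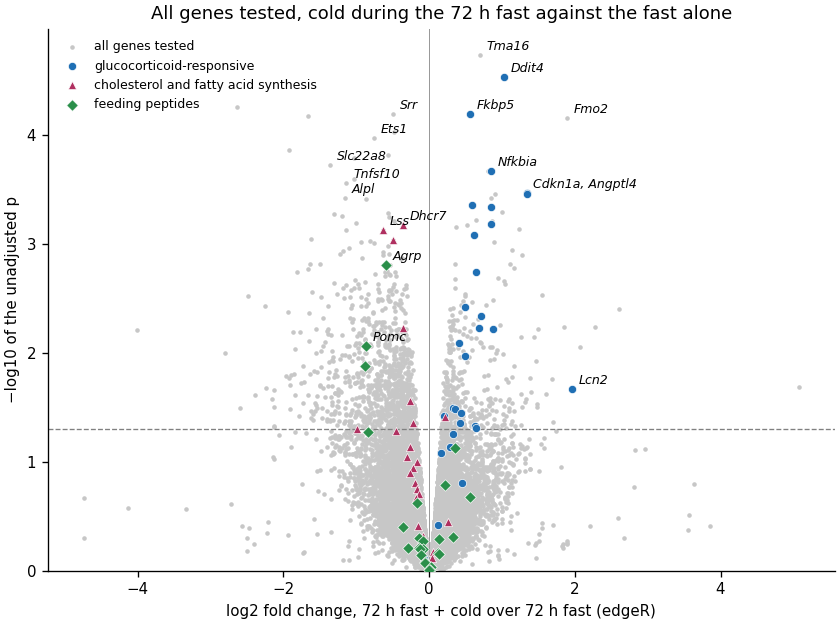
Each point is 1 of 20408 genes, with the edgeR log2 fold change (72 h fast with cold over 72 h fast) on the x axis and −log10 of the unadjusted p on the y axis; the dashed line marks 0.05. Of 30 glucocorticoid-responsive genes (blue circles) 24 lie above the line on the right, while 7 of 25 cholesterol and fatty acid synthesis genes (red triangles) and 3 of 25 feeding peptide genes (green diamonds) lie above it on the left.

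Genes induced through the glucocorticoid receptor stood higher in the cold libraries as a group. Of 30 members tested, 24 were higher at an unadjusted p below 0.05, against 1.9% of all genes, and 0 were lower. In 20 of the 30 the groups did not overlap, each time with the cold libraries on top, against 6.84% of all genes. The median log2 fold change was 0.58, beside -0.0033 over all genes tested, and it lay between 0.47 and 0.65 under the alternatives tried. The edgeR count of 24 was 17 without cold library 3 and 18 without 72 h library 2, and between 21 and 23 without any other library. DESeq2 called 10 of the 30 higher, against 0.142% of all genes, and voom 7, against 0.0784%. That this list stands apart in the cold was known from earlier results when it was chosen, so its direction is not independent evidence.

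Summed over the 30 genes, the level was 1628.5, 1431.1 and 1854.8 CPM in cold libraries 1 to 3. It was between 1012.4 and 1176.8 CPM in fed libraries, between 1516.3 and 1643.3 CPM after 24 h without food and between 1071.8 and 1172.0 CPM after 72 h. Every cold library thus exceeded every 72 h library, and the cold range covered the 24 h range; the difference between the cold and the 24 h group was not tested here.

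The promoters of 2 members hold the letters of the receptor's element, searched as GNACA, any 3 bases and TGTNC, within 250 bases before the gene start. They are printed as the only matches in the list, and both genes were among the 24. RefSeq promoters (GRCm38.p6) matched 23 of the 30 members by symbol. The letters read the same on both strands and occur in this window in 119 of 27025 genes (0.44%). Capitals mark the match, which begins 181 bases before the start of Map3k6 (chr4:133240568-133240817, plus strand) and 188 bases before that of Sgk1 (chr10:21993640-21993889, plus strand).
Map3k6: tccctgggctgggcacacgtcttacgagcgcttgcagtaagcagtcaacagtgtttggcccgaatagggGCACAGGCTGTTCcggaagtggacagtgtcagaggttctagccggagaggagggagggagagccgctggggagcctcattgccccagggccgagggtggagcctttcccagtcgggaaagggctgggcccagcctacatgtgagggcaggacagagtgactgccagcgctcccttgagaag
Sgk1: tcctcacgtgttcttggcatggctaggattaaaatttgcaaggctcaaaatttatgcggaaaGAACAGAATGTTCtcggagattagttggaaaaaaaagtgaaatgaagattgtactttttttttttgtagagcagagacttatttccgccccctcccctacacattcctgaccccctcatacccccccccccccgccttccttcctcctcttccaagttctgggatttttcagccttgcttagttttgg
A match of letters is a description of the sequence and was not tested for binding.

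Among members that restrain signalling, Fkbp5 encodes a co-chaperone that lowers the receptor's affinity for hormone (ENSMUSG00000024222, GRCm38 chromosome 17, 28399094 to 28517527, minus strand; 12.9% of its span is shared with other genes). It had 84.2, 68.8 and 77.0 CPM in cold libraries 1 to 3, against 57.2, 48.9 and 49.3 CPM in 72 h libraries 1 to 3. The groups did not overlap, and the log2 fold change was 0.57 ± 0.10 (SE; edgeR adjusted p = 0.203, DESeq2 adjusted p = 0.000362, voom adjusted p = 0.029). Nfkbia, the inhibitor of NF-kappaB (chromosome 12, 55489410 to 55492647), had 29.5, 23.3 and 28.5 CPM in the cold, against 16.6, 13.6 and 14.9 CPM. Each cold library lay above each 72 h library, with a log2 fold change of 0.85 ± 0.17 (edgeR adjusted p = 0.291). Errfi1, a feedback inhibitor of EGF receptors, averaged 56.2 ± 7.86 CPM in cold libraries and 37.2 ± 3.17 CPM in 72 h libraries (SD, n = 3 each), again without overlap. Tsc22d3, which encodes the anti-inflammatory protein GILZ and is a standard glucocorticoid target, had 97.8, 82.8 and 104 CPM in the cold, against 88.9, 83.9 and 88.4 CPM, so its groups overlapped (log2 fold change 0.12 ± 0.13).

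Members that act on growth were among those with the largest differences. Ddit4 encodes REDD1, an inhibitor of mTORC1 (ENSMUSG00000020108, chromosome 10, 59949669 to 59951834, minus strand). Its level was 53.6, 41.7 and 63.1 CPM in the cold libraries, against 26.4, 23.1 and 28.4 CPM in the 72 h libraries. All cold libraries were higher, by 2.03-fold on average (log2 fold change 1.02 ± 0.16, edgeR adjusted p = 0.203, DESeq2 adjusted p = 2.85e-05). Cdkn1a, whose product p21 halts the cell cycle, lies on chromosome 17 (29090976 to 29100727, plus strand, ENSMUSG00000023067, 10.7% shared). It had 66.8, 32.3 and 75.1 CPM in the cold, against 29.5, 18.7 and 20.7 CPM, a 2.53-fold higher mean (1.34 ± 0.27, edgeR adjusted p = 0.343). Cold library 2 was far below the other two and just above the highest 72 h library; without it the quasi-likelihood test called Cdkn1a (log2 fold change 1.63, edgeR adjusted p = 0.0242). Fed libraries averaged 7.52 ± 1.07 CPM and those of the 24 h fast 30.4 ± 3.85 CPM (SD, n = 3 each).

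Some members act on fat and fuel use. Pnpla2 encodes adipose triglyceride lipase, which opens the breakdown of stored fat (chromosome 7, 141455198 to 141460743), and had 49.0, 36.7 and 54.5 CPM in the cold, against 26.5, 25.6 and 25.5 CPM. The 72 h libraries lay within 1 CPM of each other and below every cold library (0.86 ± 0.18, edgeR adjusted p = 0.37). Angptl4, an inhibitor of lipoprotein lipase (chromosome 17, 33773750 to 33781830), had 12.0, 10.7 and 6.91 CPM in the cold, against 3.71, 2.64 and 5.25 CPM, without overlap (1.34 ± 0.28). Pdk4, the kinase that switches pyruvate dehydrogenase off, averaged 15.6 ± 1.69 CPM in cold and 9.97 ± 1.73 CPM in 72 h libraries (SD, n = 3 each; 0.65 ± 0.17). Plin4, a coat protein of lipid droplets, overlapped, with 73.6, 95.4 and 146 CPM in the cold, against 57.1, 54.0 and 92.2 CPM (0.63 ± 0.28, and 0.32 without cold library 3).

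The kinases of the list followed the same direction. Sgk1, a kinase that regulates ion transport, had 193, 179.6 and 262 CPM in the cold, against 133, 128 and 134 CPM (0.68 ± 0.20, edgeR adjusted p = 0.567). Map3k6 had 7.49, 5.48 and 8.26 CPM in the cold, against 5.01, 2.37 and 4.14 CPM (0.88 ± 0.27). Both had every cold library above every 72 h library. Their promoters, printed above, were the only 2 matches among 23 members, in a list chosen with earlier results known. This does not tie the letters to the difference. Sgk3, a relative of Sgk1, did not overlap either, but its cold values were spread, at 33.6, 46.2 and 74.9 CPM, against 31.5, 31.6 and 31.1 CPM (0.72 ± 0.21, and 0.345 without cold library 3).

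Transcription factors of the list gave smaller differences. Klf9 had 207, 168 and 229.9 CPM in the cold, against 152, 126 and 150.0 CPM (0.50 ± 0.14), and Zbtb16 averaged 131 ± 7.34 CPM in cold and 92.9 ± 10.6 CPM in 72 h libraries (SD, n = 3 each; 0.49 ± 0.17). Klf15 (0.21 ± 0.09, and 0.138 without cold library 3) and Bcl6 (0.17 ± 0.09) did not overlap either, with differences under 1.2-fold. Per1, a clock gene with glucocorticoid response elements, overlapped, at 121, 81.9 and 103 CPM in the cold, against 96.3, 75.6 and 71.8 CPM (0.32 ± 0.15). The ends of the list were Lcn2, an iron-carrier protein made by reactive astrocytes, at 1.97 ± 0.75, and Tgm2, a transglutaminase, at -0.07 ± 0.26. Lcn2 was rare, with 0.550, 0.444 and 0.421 CPM in the cold, against 0.0271, 0.273 and 0.0682 CPM, so its fold rests on few counts in the 72 h libraries. Other genes share 45% of the span of Pla2g3, a secreted phospholipase (0.85 ± 0.19), and 52.9% of that of Tgm2, and their counts may be incomplete.

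**Figure D2:**
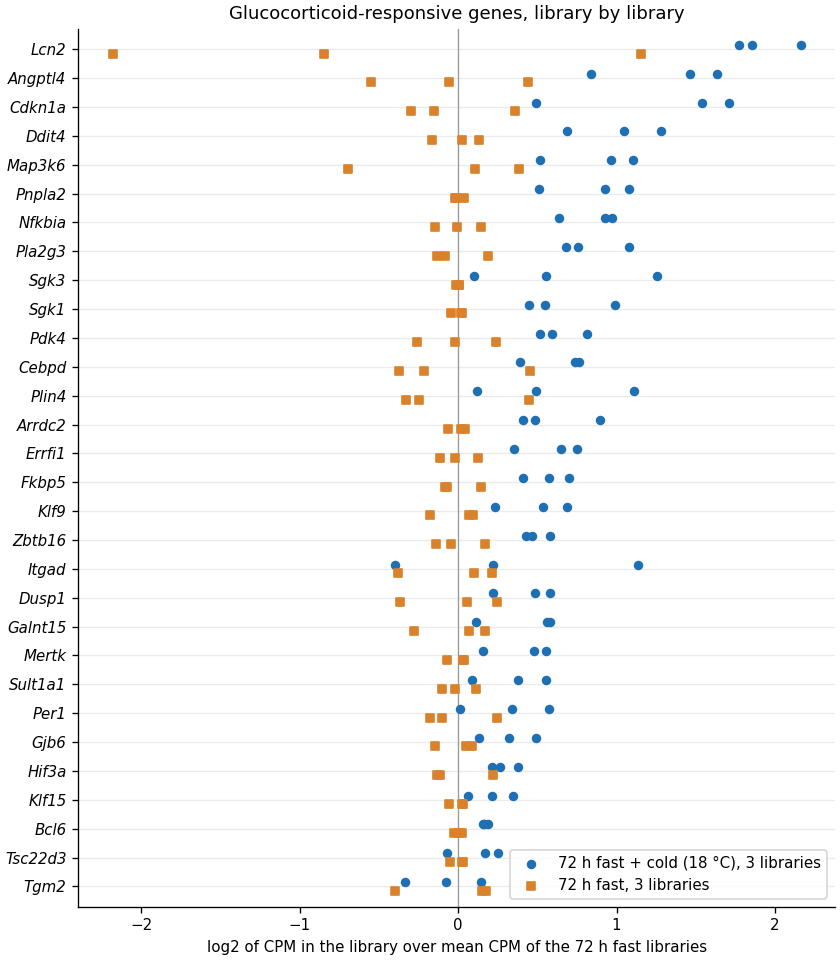
Each row is 1 of the 30 glucocorticoid-responsive genes tested, ordered by log2 fold change, and the x axis is log2 of a library's CPM over the mean CPM of the 72 h fast libraries. Blue circles are the 3 libraries with cold and orange squares the 3 libraries of the 72 h fast; in 20 rows all circles lie to the right of all squares, and in 21 rows cold library 2 has the lowest of the circles.

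Astrocytes and brain endothelium carry much of the brain's glucocorticoid response, so their markers are set beside these values. The 17 astrocyte markers, all tested and none at 0, summed to 6198.8, 6038.7 and 6824.6 CPM in cold libraries, against 5541.3, 5330.9 and 5486.1 CPM in 72 h libraries, with a median log2 fold change of 0.11; Gjb6 and Lcn2 stand in both lists. The 16 endothelial markers, none at 0, summed to 316.0, 294.2 and 355.0 CPM in the cold, against 348.5, 356.5 and 354.8 CPM. The astrocyte sum was thus higher in every cold library, by a smaller factor than most members of the glucocorticoid list, and the endothelial sum was not. Their part in the result was not tested.

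**Figure D3:**
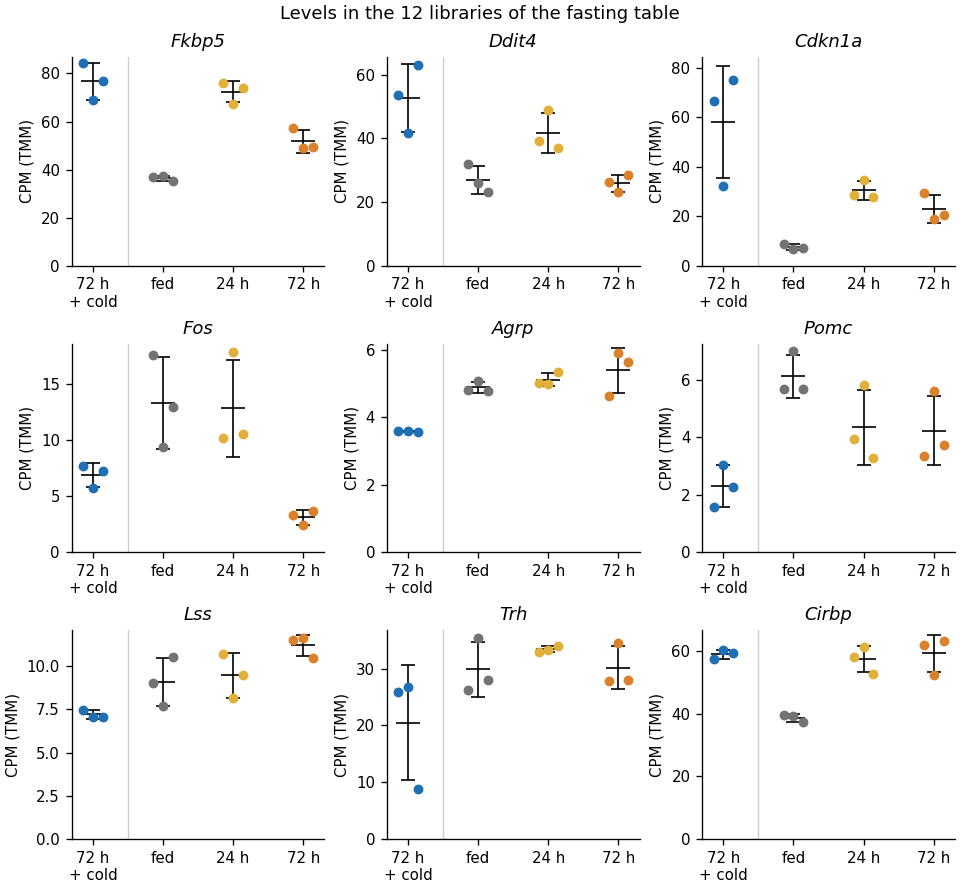
CPM (TMM-scaled, y axis from 0) of 9 genes in the 12 libraries of the fasting table: 72 h fast with cold at the left of each panel, then fed, 24 h fast and 72 h fast; points are libraries, and bars give the mean ± SD of 3 libraries. Fkbp5, Ddit4, Cdkn1a and Fos have every cold library above every 72 h library, Agrp, Pomc and Lss have every cold library below, Trh has 1 cold library far below the rest, and Cirbp overlaps.

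The activity marker Fos was higher in the cold, and few other activity-induced genes passed an unadjusted p of 0.05. Fos, an immediate early transcription factor used to map active neurons (ENSMUSG00000021250, chromosome 12, 85473890 to 85477273, plus strand), had 7.73, 5.74 and 7.24 CPM in the cold, against 3.30, 2.40 and 3.68 CPM. The groups did not overlap, and the mean was 2.20-fold higher (log2 fold change 1.14 ± 0.27, edgeR adjusted p = 0.45, DESeq2 adjusted p = 0.0164, voom adjusted p = 0.102). The cold level was still below that of fed (13.3 ± 4.10 CPM) and 24 h fasted (12.9 ± 4.33 CPM) libraries (SD, n = 3 each). Of 36 activity-induced genes 28 had fold changes above 0, with a median of 0.21. Without overlap, 5 were higher and 0 lower, against 6.84% and 8.68% of all genes. At an unadjusted p below 0.05, 4 were higher and 0 lower, against 1.9% and 4.45% of all genes. The other three were Trib1 (0.36 ± 0.13), a pseudokinase, Dusp1 (0.43 ± 0.18), a phosphatase that switches off MAP kinases and a glucocorticoid target as well, and Sik1 (0.32 ± 0.14), a kinase induced by cAMP. Egr1 overlapped, at 34.2, 29.4 and 28.8 CPM in the cold, against 31.5, 19.8 and 17.5 CPM (0.42 ± 0.29).

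Among peptides of the arcuate feeding circuit, Agrp and Pomc were lower in the cold, while Npy and Cartpt did not differ beyond their spread. Agrp, whose product promotes feeding by blocking melanocortin receptors (ENSMUSG00000005705, chromosome 8, 105566698 to 105637393, minus strand), had 3.61, 3.58 and 3.58 CPM in the cold, against 4.63, 5.89 and 5.64 CPM. Every cold library was lower (log2 fold change -0.59 ± 0.15, edgeR adjusted p = 0.469, DESeq2 adjusted p = 0.099); the annotated span is 59.9% shared with other genes, and reads there may be incomplete. Npy, made by the same neurons, had 14.1, 17.9 and 12.2 CPM in the cold, against 16.0, 14.7 and 13.4 CPM, and did not differ beyond its spread (0.01 ± 0.25). Pomc, the precursor of melanocortins and beta-endorphin (chromosome 12, 3954951 to 3960642), had 1.59, 3.04 and 2.28 CPM in the cold, against 3.36, 5.59 and 3.73 CPM. The lowest 72 h library was only slightly above the highest cold library (-0.87 ± 0.28, edgeR adjusted p = 0.598). Cartpt, a satiety peptide gene, overlapped fully (0.14 ± 0.35).

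Of 25 feeding peptide genes 3 were lower at an unadjusted p below 0.05, against 4.45% of all genes, and 0 were higher. The third was Qrfp, a peptide gene of preoptic and lateral hypothalamic neurons that in mice have been linked to torpor-like states, with 0.733, 0.919 and 0.691 CPM in the cold, against 1.22, 1.73 and 1.36 CPM (-0.88 ± 0.31). Its groups did not overlap, and its level was low throughout. Of 29 receptors of feeding signals 1 was higher, Oprm1, the mu opioid receptor (0.28 ± 0.12, with 55.7% of its span shared), against 1.9% of all genes, and 0 were lower.

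The dissected region is set beside Agrp and Pomc through 27 markers of hypothalamic nuclei, both included. Of these 24 were tested, and Dlx1, Hmx2 and Hmx3 were not. None of the 24 was at 0 in a library, but tested genes had passed a filter on counts, so this does not check the tissue label. The 24 summed to 260.1, 448.9 and 348.5 CPM in cold libraries and 357.1, 570.9 and 369.6 CPM in 72 h libraries, with overlap. The median was -0.26, which came to -0.114 without 72 h library 2 and -0.531 without cold library 2; 22 of 24 fold changes were below 0. At an unadjusted p below 0.05, 4 were lower, against 4.45% of all genes: Agrp, Pomc, Tbx3 (-0.55 ± 0.25, and -0.325 without 72 h library 2), an arcuate transcription factor, and Nr5a1. Nr5a1, the factor SF1 that marks the ventromedial nucleus, had 2.57, 3.20 and 1.26 CPM in the cold, against 4.20, 4.77 and 4.36 CPM (-0.92 ± 0.31), without overlap.

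Genes of neighbouring regions gave positive medians that moved with single libraries. The 14 thalamic and cortical markers summed to 2345.3, 1564.7 and 2479.8 CPM in the cold, against 1974.6, 1191.9 and 1809.1 CPM (median 0.39, 13 of 14 above 0), and the 14 striatal markers to 751.1, 982.2 and 715.7 CPM, against 716.5, 603.1 and 669.9 CPM (median 0.26). The thalamic and cortical median came to 0.213 without cold library 3 and 0.148 without 72 h library 2. The striatal median turned to -0.0757 without cold library 2, so its sign rested on that library. Tcf7l2, a thalamic transcription factor, had 303, 130.0 and 333 CPM in the cold, against 244, 116 and 203 CPM, so libraries numbered 2 were lowest in both groups. Among striatal markers Pde10a, a phosphodiesterase, was higher without overlap (0.49 ± 0.14). How the borders of the dissected piece bear on Agrp, Pomc and Nr5a1, or on the glucocorticoid list, was not tested. The glucocorticoid list sum, like the thalamic and cortical one, was lowest in library 2 of each group (1431.1 CPM in the cold, 1071.8 CPM without). In bulk tissue fewer cells of a type and less RNA per cell cannot be told apart. The 6 anterior pituitary markers tested, Pomc included, summed to 2.44, 3.52 and 2.76 CPM in the cold, against 4.44, 6.44 and 4.09 CPM. Gh, Prl and Cga were at 0 in at least 1 library. Pomc alone made up most of each sum, so these sums largely restate its difference and are not a separate observation.

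**Figure D4:**
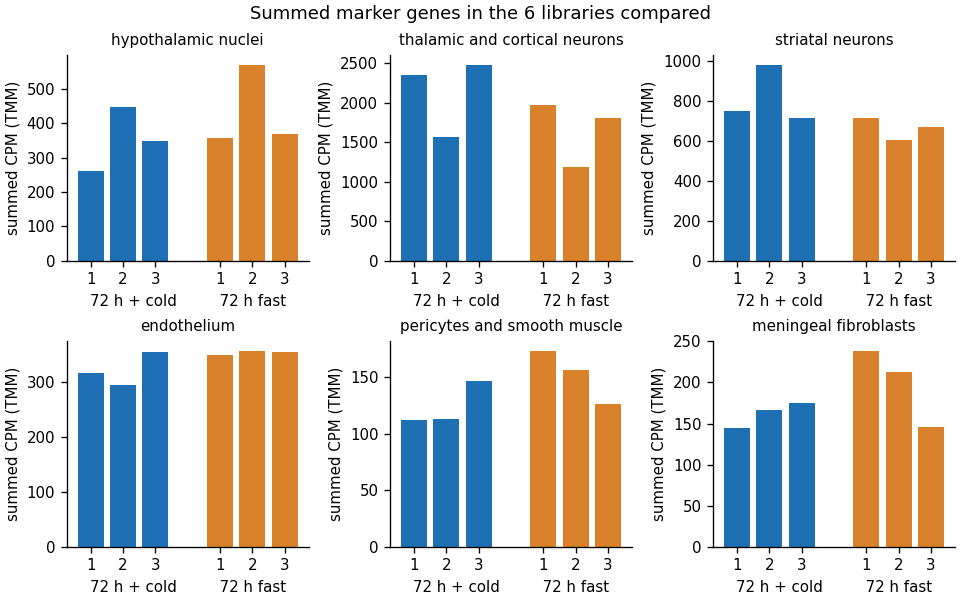
Bars are the summed CPM (TMM-scaled, y axes from 0) of marker genes in each of the 6 libraries, with the 3 cold libraries in blue at the left of each panel and the 3 libraries of the 72 h fast in orange at the right. Thalamic and cortical markers are lowest in library 2 of both groups, and hypothalamic markers are highest there.

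Genes of the stress axis itself showed little. Of 14 tested, 1 was higher, Pcsk2, a convertase that cuts prohormones, with 413, 315 and 396 CPM in the cold, against 310.1, 231 and 303 CPM (0.41 ± 0.13, edgeR adjusted p = 0.598), against 1.9% of all genes, and 0 were lower. Crh, the releasing hormone of the axis, had 4.03, 3.61 and 1.71 CPM in the cold, against 3.09, 2.34 and 1.73 CPM (0.39 ± 0.37, and 0.196 without cold library 1), and overlapped. Avp had 38.9, 51.5 and 12.0 CPM in the cold, against 63.2, 59.3 and 47.1 CPM (-0.73 ± 0.43), and Oxt 31.4, 42.4 and 7.66 CPM, against 44.8, 52.2 and 31.1 CPM (-0.65 ± 0.51); without cold library 3 they came to -0.322 and -0.21, in that order. Cold library 3 was the lowest for Crh, Avp, Oxt and Trh, all peptide genes of the paraventricular nucleus. Trh, which starts the thyroid axis, had 25.9, 26.8 and 8.74 CPM in the cold, against 27.8, 34.5 and 28.0 CPM (-0.56 ± 0.31); without cold library 3 its log2 fold change came to -0.19.

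Local thyroid hormone genes were mixed, with 1 higher and 1 lower of 15, against 1.9% and 4.45% of all genes. Dio2, the deiodinase that makes active hormone in tanycytes and astrocytes, had 27.4, 24.8 and 51.5 CPM in the cold, against 26.5, 19.7 and 23.4 CPM, so the difference of 0.58 ± 0.33 came mostly from cold library 3, and without it was 0.17. Slco1c1, a thyroxine carrier of brain endothelium and astrocytes, was lower without overlap, at 23.2, 30.4 and 29.8 CPM in the cold, against 31.7, 33.5 and 45.5 CPM (-0.41 ± 0.15, and -0.199 without 72 h library 3). Hr, a corepressor induced by thyroid hormone, overlapped (0.41 ± 0.19, and 0.183 without cold library 3).

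Genes tied to cold itself differed little. Cirbp and Rbm3 encode RNA-binding proteins that rise in cooled cells. Cirbp had 57.4, 60.3 and 59.5 CPM in the cold, against 62.1, 52.4 and 63.4 CPM (-0.01 ± 0.09), and Rbm3 had 69.1, 66.4 and 80.2 CPM, against 65.8, 53.5 and 84.0 CPM (0.08 ± 0.17). Both overlapped, and the sign of both turned when single libraries were left out. Of the 11 genes of this list 1 was lower, the splicing factor Tra2a (-0.36 ± 0.15), against 4.45% of all genes, and 0 were higher. Of 13 genes of the thermogenic programme 2 were higher, against 1.9% of all genes, and 0 lower. Ucp2, a mitochondrial carrier that acts in AgRP neurons during fasting, had 50.0, 50.8 and 39.2 CPM in the cold, against 31.0, 34.7 and 33.7 CPM, without overlap (0.50 ± 0.14, edgeR adjusted p = 0.522, voom adjusted p = 0.0675). Ppargc1a, the coactivator of mitochondrial genes, averaged 109.5 ± 7.05 CPM in cold and 92.5 ± 7.09 CPM in 72 h libraries (SD, n = 3 each; 0.24 ± 0.09). Of 23 genes that mark or serve temperature-regulating neurons 1 was lower, Qrfp, which is near the share of 4.45% over all genes, and 0 were higher.

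Genes of cholesterol synthesis, which SREBP2 controls, were in part lower, by small factors. Of 25 cholesterol and fatty acid synthesis genes 7 were lower at an unadjusted p below 0.05, against 4.45% of all genes, and 1 was higher; 7 were lower and 1 higher without overlap, against 8.68% and 6.84%. The median was -0.19, and 21 of 25 fold changes were below 0; without cold library 2 the median came to -0.108. The summed level overlapped, at 3232.6, 3092.5 and 3799.9 CPM in the cold, against 3585.2, 3661.0 and 3196.0 CPM, with cold library 3 the highest of the 6. Dhcr7, the last enzyme of cholesterol synthesis (chromosome 7, 143823145 to 143848410), had 23.3, 22.7 and 24.4 CPM in the cold, against 29.5, 31.1 and 30.2 CPM. The gap between the groups was wide beside their spread, at a log2 fold change of -0.37 ± 0.08 (edgeR adjusted p = 0.37, DESeq2 adjusted p = 0.0352). Lss, lanosterol synthase (chromosome 10, 76531588 to 76557138, 44.1% shared), had 7.49, 7.07 and 7.06 CPM in the cold, against 11.5, 11.6 and 10.5 CPM (-0.64 ± 0.15, DESeq2 adjusted p = 0.0359). In both genes every cold library was below every 72 h library. Other lower members were Mvk, mevalonate kinase (-0.35 ± 0.11), Fdft1, squalene synthase (-0.22 ± 0.10, and -0.146 without 72 h library 2) and the scarcely counted Fdps, 89.7% of whose span is shared; the higher one was Acaca, acetyl-CoA carboxylase of fatty acid synthesis (0.22 ± 0.09).

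On the side of fat use, 5 of 30 genes of fatty acid oxidation, lipolysis and ketone use were higher, against 1.9% of all genes, and 1 was lower, with a median of 0.05 that came to 0.00423 without cold library 3. Of the 5, Angptl4, Pnpla2, Pdk4 and Plin4 belong to the glucocorticoid list too. The remaining one was Cpt1a, which lets long-chain fatty acids into mitochondria, with 38.7, 38.6 and 36.2 CPM in the cold, against 30.8, 30.8 and 32.6 CPM (0.27 ± 0.09), without overlap. The lower one was Ppara, a fatty acid receptor that induces oxidation genes, with 3.48, 4.50 and 3.34 CPM in the cold, against 5.23, 6.32 and 5.23 CPM (-0.57 ± 0.21). Of 27 genes of glucose handling 1 was higher, Slc2a1, the GLUT1 transporter of the blood-brain barrier (0.25 ± 0.09), against 1.9% of all genes, and 0 were lower. Of 21 genes of insulin and FoxO signalling 3 were higher, Trib1, Irs2 (0.28 ± 0.11) and Igf1r (0.25 ± 0.11), and Irs1 was lower (-0.27 ± 0.10, and -0.171 without 72 h library 3), beside 1.9% and 4.45% of all genes.

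Several genes of vessels and meninges were lower in the cold. Of 16 endothelial genes 6 were lower and 2 higher, of 13 pericyte and smooth muscle genes 3 were lower, and of 11 meningeal fibroblast genes 3 were lower, against 4.45% of all genes lower and 1.9% higher. The endothelial median of -0.21 came to -0.089 without cold library 2 and -0.124 without 72 h library 3. The pericyte and smooth muscle median of -0.37 came to -0.0951 without 72 h library 1, and the meningeal median of -0.57 to -0.247 without 72 h library 1 and -0.289 without cold library 1. Tie1, an endothelial receptor of the angiopoietin system (chromosome 4, 118471191 to 118490061), had 1.65, 2.12 and 2.61 CPM in the cold, against 4.22, 4.80 and 4.00 CPM. It did not overlap (-1.02 ± 0.21, edgeR adjusted p = 0.322, DESeq2 adjusted p = 0.00305). Flt1, a VEGF receptor, had 42.4, 47.4 and 52.1 CPM in the cold, against 55.7, 62.0 and 65.1 CPM (-0.37 ± 0.10), and Pdgfrb, the receptor that keeps pericytes on vessels, had 18.1, 15.6 and 19.0 CPM, against 30.8, 24.8 and 20.3 CPM (-0.52 ± 0.14, and -0.327 without 72 h library 1). Summed levels were 112.7, 112.9 and 147.2 CPM in the cold, against 173.6, 156.9 and 126.3 CPM for pericyte and smooth muscle markers, and 144.9, 166.6 and 175.1 CPM, against 238.6, 212.9 and 145.9 CPM for meningeal markers. Both overlapped, with 72 h library 3 the lowest of its group. Single meningeal genes turned on that library too: Slc13a4, a sulphate carrier, had 3.27, 3.30 and 4.39 CPM in the cold, against 17.4, 10.8 and 2.45 CPM, so 72 h library 3 fell within or below the cold range. Islr gave the same pattern, at 3.76, 3.99 and 4.48 CPM, against 11.9, 9.87 and 3.95 CPM. Without 72 h library 3 the quasi-likelihood test called both lower, at log2 fold changes of -1.92 and -1.38 (edgeR adjusted p = 0.048 each).

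Further values are for genes named by the smallest p, with a mean of at least 1 CPM and no overlap, in the lower direction; their known sites of expression are background and were not tested as a group. Ets1 (chromosome 9, 32636221 to 32757820), a transcription factor of endothelium and lymphocytes, had 8.40, 9.61 and 11.7 CPM in the cold, against 16.2, 19.2 and 15.1 CPM (-0.76 ± 0.14, edgeR adjusted p = 0.24, DESeq2 adjusted p = 0.0019, voom adjusted p = 0.0404), and its relative Fli1 was lower as well (-0.57 ± 0.12). Slc22a8, an organic anion transporter of the blood-brain barrier (chromosome 19, 8591254 to 8611835), had 2.26, 5.23 and 5.50 CPM in the cold, against 13.1, 10.9 and 9.36 CPM (-1.36 ± 0.26). Alpl, an alkaline phosphatase of brain endothelium, had 2.44, 2.38 and 5.14 CPM in the cold, against 8.34, 7.20 and 6.66 CPM (-1.15 ± 0.24). None of these 4 overlapped, as the rule required. Nid2, a basement membrane protein (-0.86 ± 0.18), Carmn, a long noncoding RNA of smooth muscle (-1.31 ± 0.29), and Olfml2a (-1.19 ± 0.26) were lower without overlap at levels under 6 CPM. Abundance of vessels in the tissue and expression per cell cannot be told apart here. Of the endothelial markers, Slc2a1 and Ly6c1 were higher, so the list did not shift as one.

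**Figure D5:**
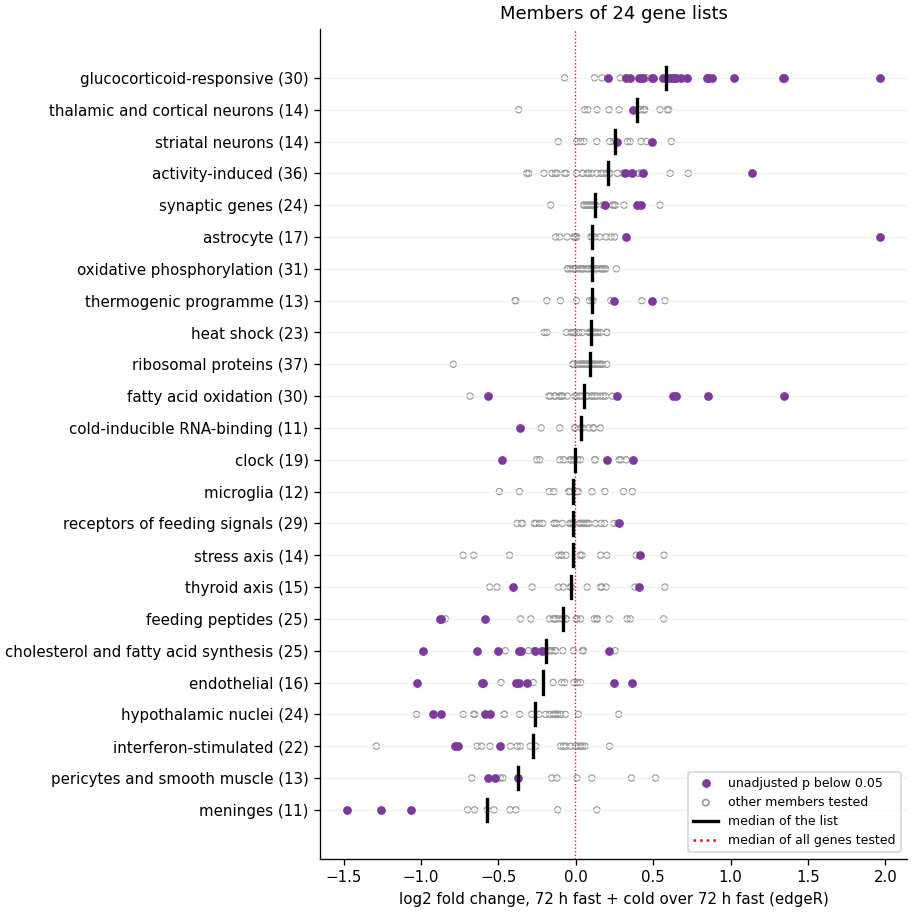
Each row is a gene list with the number of members tested in brackets, and the x axis is the edgeR log2 fold change (72 h fast with cold over 72 h fast). Purple points are members with an unadjusted p below 0.05, open points are the others, thick bars are the medians of the lists and the dotted line is the median of all genes; the medians run from 0.58 for glucocorticoid-responsive genes to -0.57 for meningeal genes.

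Outside these groups, the rule that took the 15 genes in each direction with the smallest p, at least 1 CPM and no overlap named Tma16 first. Tma16, a nuclear protein thought to act in ribosome assembly (ENSMUSG00000025591, chromosome 8, 66473118 to 66486530, minus strand), had 34.8, 29.2 and 34.9 CPM in the cold, against 21.9, 18.8 and 20.1 CPM (0.70 ± 0.11, edgeR adjusted p = 0.203, DESeq2 adjusted p = 2.63e-05). Fmo2, a flavin monooxygenase (chromosome 1, 162874317 to 162898726), had 8.25, 9.07 and 4.60 CPM in the cold, against 2.08, 1.94 and 1.86 CPM, the largest fold of these 30 at 3.71 (1.89 ± 0.33). Fed libraries averaged 7.15 ± 3.75 CPM and those of the 24 h fast 7.96 ± 0.639 CPM (SD, n = 3 each), so the 72 h fast libraries stood apart from the other 3 groups. Xdh, xanthine dehydrogenase of purine breakdown, had 18.6, 13.5 and 17.4 CPM in the cold, against 9.48, 9.39 and 9.36 CPM (0.81 ± 0.16). Among the other higher genes were the RNA-binding protein gene Zfp36, which marks inflammatory messages for decay (0.86 ± 0.19, 36.7% shared), the endosomal RNA sensor Tlr7 (0.90 ± 0.19), the chloride channel Ano2 (0.85 ± 0.18), the histone methyltransferase Setdb2 (0.65 ± 0.14) and 7 genes of the glucocorticoid list (Ddit4, Fkbp5, Nfkbia, Cdkn1a, Angptl4, Errfi1 and Pnpla2).

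Of the lower 15, Srr encodes serine racemase, which makes D-serine, a co-agonist of NMDA receptors (chromosome 11, 74906359 to 74925948, 15.9% shared). It had 20.3, 22.7 and 19.7 CPM in the cold, against 29.6, 29.6 and 29.1 CPM, without overlap, as the rule required (-0.49 ± 0.09, edgeR adjusted p = 0.203, voom adjusted p = 0.0404). Insc, an adaptor of oriented cell division, had 5.10, 7.86 and 9.07 CPM in the cold, against 11.8, 15.6 and 17.5 CPM (-1.03 ± 0.20). Tnfsf10, the death ligand TRAIL, had 1.71, 1.55 and 1.32 CPM in the cold, against 3.01, 3.46 and 3.61 CPM (-1.14 ± 0.23). The others were Thap2 (-0.49 ± 0.09), Kctd21 (-0.57 ± 0.11), Trim45 (-0.55 ± 0.12), a ubiquitin ligase, and Hs3st1 (-0.49 ± 0.11), a heparan sulphate sulphotransferase. In Srr, Thap2, Ets1 and Kctd21 the fed mean was higher than the 72 h mean as well, at 35.4, 36.1, 25.1 and 20.6 CPM in fed libraries against 29.4, 29.3, 16.8 and 14.7 CPM in 72 h libraries.

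Single members of other lists stood out. Mt1, a metal-binding stress protein that glucocorticoids induce, had 270.4, 204 and 245 CPM in the cold, against 180.4, 154 and 145 CPM (0.59 ± 0.16), and Slc30a10, a manganese exporter, was lower (-0.47 ± 0.12). Dbp, an output gene of the clock, was lower at 21.1, 20.8 and 22.2 CPM, against 34.4, 31.2 and 23.6 CPM (-0.47 ± 0.14); of 19 clock genes 2 were higher and 1 was lower, against 1.9% and 4.45% of all genes. Opalin, a myelin protein gene, had 10.2, 10.7 and 22.1 CPM in the cold, against 25.9, 22.7 and 29.5 CPM (-0.86 ± 0.24), and without cold library 3 the quasi-likelihood test called it lower (-1.32, edgeR adjusted p = 0.0147). The 17 oligodendrocyte markers, Opalin included, did not go 1 way: 9 fold changes were above 0 and 8 below. At an unadjusted p below 0.05, 1 was higher and 3 were lower, against 1.9% and 4.45% of all genes. Olig2 had a log2 fold change of 0.51. The median was 0.04, and -0.267 without cold library 3. Summed, the 17 had 3931.6, 4502.8 and 6816.3 CPM in the cold, against 4643.7, 4913.3 and 4946.5 CPM, so cold library 3 held the most. Grin2a (0.40 ± 0.13) and Grin2b (0.42 ± 0.14), NMDA receptor subunits, were higher without overlap among 24 synaptic genes, of which 3 were higher, against 1.9% of all genes, and 0 lower.

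Many groups that answer to heat, protein load or energy demand showed no member past an unadjusted p of 0.05. These were 23 cytosolic chaperones (median 0.10), 21 endoplasmic reticulum chaperones (0.09), 37 ribosomal protein genes (0.09) and 31 nuclear genes of oxidative phosphorylation (0.10). Without cold library 3 these medians came to 0.0133, 0.0483, 0.0171 and -0.0135, in that order. That library thus set most of their size, except for the endoplasmic reticulum chaperones. Among 12 microglial, 12 choroid plexus, 7 blood cell, 15 liver and 11 skeletal muscle markers, 0 passed an unadjusted p of 0.05 either. Of 22 interferon-stimulated genes 3 were lower, against 4.45% of all genes, and 0 higher (median -0.28), and of 21 genes of the ATF4 amino acid response 1 was higher, Ddit4, against 1.9% of all genes. Of 15 tanycyte and ependymal markers 1 was lower, against 4.45% of all genes.

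The authors' deposited table, from their own edgeR likelihood ratio test over 18489 genes, lists 303 genes with a q-value below 0.05 (1.64%), 119 higher (0.644%) and 184 lower (0.995%) in the cold. The authors' deposited table also gives 30 genes an adjusted p below 0.05 (0.162%), 13 higher (0.0703%) and 17 lower (0.0919%). The authors' deposited table has 14 of the 30 glucocorticoid-responsive genes higher at a q-value below 0.05, against 0.644% of its genes, and 0 lower. In the authors' deposited table Fmo2 comes first, at a log2 fold change of 1.89 (q-value 2.5e-10), and Fos, Ddit4 and Nfkbia follow among the first 8, at 1.13, 1.02 and 0.85. Tnfsf10 (-1.14), Ninj2 (-0.93) and Mcemp1 (-1.82) lead the lower genes of the authors' deposited table. Of the 57 DESeq2 calls 40 (70.2%) had a q-value below 0.05 in the authors' deposited table, which is 13.2% of its 303.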

How the data were processed

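Total RNA of hypothalamus had been extracted with Qiagen RNeasy, depleted of ribosomal RNA and made into directional libraries with a NEBNext Ultra II kit, per the labels' protocols. Reads were aligned to mm10 with HISAT2 and counted per gene with featureCounts, and edgeR was used, per the submitters' processing notes, without versions. The authors deposited gene counts as raw integers. They also deposited a comparison of cold with the 72 h fast that gives a log2 fold change per gene, a likelihood ratio p-value, a q-value and an adjusted p that equals Holm's correction of the p-value. A further 6 columns of per-library values in that comparison were not used.

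The 12 libraries of the fasting count table (4 groups of 3) were fitted together with edgeR 4.0.16 (R 4.3.3): filterByExpr, TMM, robust quasi-likelihood F tests, a prior count of 0.125, and Benjamini-Hochberg adjustment over 20408 genes at 0.05. Nothing was left out. DESeq2 1.42.0, limma 3.58.1 (voom), sva 3.50.0, other filters, fewer libraries and a block were alternatives. The fit was tested on simulated data. Depth was between 31512969 and 43397395 counts in the 6 libraries compared. Same-numbered cold and 72 h libraries correlated at 0.234, 0.296 and -0.0647 in their deviations from the group means, and different-numbered ones at -0.373 to 0.152. The labels do not say that the numbers mark pairs, so the main fit took none, and the block by number was an alternative. The labels give each library its own batch name, so no batch could be compared.

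Genes named were the 15 with the smallest unadjusted p in each direction (mean of at least 1 CPM, no overlap between groups, a named symbol). Also named were 14 set genes: Agrp, Npy, Pomc, Cartpt, Trh, Crh, Avp, Oxt, Cirbp, Rbm3, Ucp2, Dio2, Fos and Fkbp5. The members with the smallest p or the extremes of each of 41 lists, and genes called by DESeq2 or voom, were added. A part of these is printed, and a few items are not reported here. The members and lists were chosen with earlier results of these data known. Lists are described by counts and medians and were not tested as sets.

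Strand was not evident in the counts: of protein-coding genes nested in another gene of their own strand 94.0% (405 of 431), and of those nested in 1 of the opposite strand 92.6% (737 of 796), were at 0 in all 12 libraries, against 12.6% (1469 of 11672) without overlap. Spans, overlaps and coordinates are from GENCODE M21 (GRCm38), which held 52029 of the 52286 identifiers.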

Additional observations from a re-analysis of the deposited data

How the results depend on the processing

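The quasi-likelihood count of 0 called genes held with other size factors, both other filters, the 6 libraries alone, 1 surrogate variable and the replicate block. DESeq2 called 57 genes, voom 28 and the likelihood ratio test 32, and leaving out 1 library gave between 0 and 5 calls: Cdkn1a without cold library 2, Slc13a4 and Islr without 72 h library 3, and Opalin, Alpl, Aspa, Gm44866 and C030029H02Rik without cold library 3. Genes at an unadjusted p below 0.05 numbered 2606 with voom and between 719 and 1641 without single libraries. The share of these that was higher, 29.9%, came to 41.9% with DESeq2's size factors, 43.9% with no filter, 43.4% with DESeq2, 41.5% with the 6 libraries alone, 42.5% without cold library 1, and 48% and 40.9% when libraries 1 and 3 of the 72 h group were left out in turn. The replicate block gave 0 calls, 1292 genes at an unadjusted p below 0.05 and 24 glucocorticoid-responsive genes higher; it changed no other call.

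Of 1691 values of 113 named genes under 15 alternatives, 1584 kept direction and side of the threshold, 90 passed it and 17 turned sign, all of them in genes with main values near 0. As log2 fold changes, Npy came to -0.0252 with the replicate block and, without single libraries, lay between -0.158 and 0.128. Cartpt came to -0.0244 with voom and lay between -0.0863 and 0.421 without single libraries. Cirbp came to 0.02 with other size factors, 0.0195 with DESeq2 and 0.0223 with no filter, and lay between -0.0584 and 0.0746 without single libraries. Without single libraries Rbm3 lay between -0.03 and 0.3, and Tgm2 between -0.211 and 0.0532. The cause was not tested. Where 1 library is left out, the other libraries of all groups supply the spread. Genes below about 1 CPM, such as Lcn2 and Fdps, rest on few counts.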

Other observations

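Serotonin genes, which belong to none of the lists and were picked after their values were seen, separated libraries within the 72 h group. Tph2, the rate-limiting enzyme of brain serotonin synthesis, had 0.886, 1.11 and 0.901 CPM in cold libraries 1 to 3, against 0.948, 6.90 and 3.48 CPM in 72 h libraries 1 to 3. Slc6a4, the serotonin transporter, had 0.0611, 0.0317 and 0.240 CPM in the cold, against 0.190, 3.37 and 2.07 CPM. Both genes were high in 72 h libraries 2 and 3 and low in the other 4, so their log2 fold changes (-1.96 ± 0.70 and -4.01 ± 1.19) do not separate the groups. Their cell bodies lie in the raphe of the brainstem, and whether the dissected piece differed was not tested. The authors' deposited table lists Slc6a4 as lower with an adjusted p of 0.00541.

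F3, tissue factor, which astrocytes make, was higher in the cold without overlap, at 81.0, 71.1 and 82.9 CPM, against 56.4, 57.1 and 49.7 CPM (0.53 ± 0.12, edgeR adjusted p = 0.37, DESeq2 adjusted p = 0.0137). Cab39l, a scaffold of the kinase LKB1, had 75.3, 75.2 and 73.3 CPM in the cold, against 60.7, 56.6 and 55.9 CPM (0.37 ± 0.08, DESeq2 adjusted p = 0.00689). Neat1, the long noncoding RNA of paraspeckles, had 82.5, 122 and 93.2 CPM in the cold, against 68.1, 71.7 and 78.0 CPM (0.45 ± 0.20); fed libraries averaged 40.3 ± 2.88 CPM and those of the 24 h fast 39.3 ± 12.2 CPM (SD, n = 3 each).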
